A study of Mus musculus with 96 samples.

Results

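Stard7, Tmem127, Snrnp200 and Itpripl1 are near neighbours on mouse chromosome 2, and their transcripts were measured in gonadal fat and liver of 48 mice. The array carried 7 probes for these 4 genes, out of 46116 probes in all, of which 29534 had 1 gene symbol, for 17658 genes in all. Every probe with 1 of the 4 symbols was taken, whether or not it gave a signal. There were 2 probes each for Stard7 (840711 and 940497), Tmem127 (770341 and 2940524) and Itpripl1 (106900450 and 101500242), and 1 for Snrnp200 (6620494). The 4 genes had been chosen because earlier results on these same arrays showed levels that differed between haplotype classes in fat, in liver or in both. Their levels by class are therefore given as a description, with no test, and tests are kept to sex, tissue and the values left after class was removed.

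The mice came from the M16i x MB2 F2 intercross, in which M16i derives from a line selected for growth, and were 15 weeks old. The labels put each mouse in haplotype class 1, 2, 3 or 4 without saying which parental segments that stands for, and only the numbers are used here. Each tissue had 12 arrays per class, 6 from females and 6 from males. The mouse numbers tie 1 fat array and 1 liver array to each animal. Within a tissue, p-values therefore measure the spread between mice. Total RNA had been turned into biotin-labelled cRNA and hybridised to Illumina bead arrays, with the aim of finding expression QTLs in a study of obesity and chromosome 2. No treatment or diet is named in the labels, and a class is defined by a stretch of chromosome, so genes linked to these 4 differ along with them.

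Between 6582 and 10002 probes per fat array and between 5519 and 9060 per liver array were detected, meaning a detection p under 0.01. Testing needed detection on at least 12 arrays of the tissue, a limit that 10217 probes met in fat and 8504 met in liver. This left 5 of the 7 probes for fat and 4 for liver. The defining markers fitted the tissue labels: all 6 adipocyte markers were detected on 24 or more fat arrays and 0 of 6 on as many liver arrays. Of 7 hepatocyte markers, 4 were detected on 24 or more liver arrays and 0 on as many fat arrays. Alb and Tat were detected on no fat array, Fgb on no array of either tissue, and Serpina1a on enough fat arrays to be tested there. Adipoq, the adipocyte hormone adiponectin, was higher in fat by 8.21 (log2).

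STARD7 belongs to the START family of lipid carriers and brings phosphatidylcholine, a main membrane lipid, to mitochondria. TMEM127 is a membrane protein of endosomes and lysosomes that restrains mTORC1 signalling, and in humans its loss predisposes to phaeochromocytoma. SNRNP200, also called BRR2, is the RNA helicase of the U5 particle that unwinds the paired U4 and U6 RNAs when a spliceosome is activated. ITPRIPL1 is a membrane protein related to the inositol trisphosphate receptor-interacting protein.

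In the GRCm38.p6 gene table the order along the chromosome is Itpripl1, 1810024B03Rik, Snrnp200, Ciao1, Tmem127, Stard7. Tmem127 and Ciao1, a gene for iron-sulfur cluster assembly in the cytosol, are read away from each other, and their annotated spans are 87 bases apart. The sequences below, from RefSeq on GRCm38.p6, are the bases upstream of each member that lie in no annotated gene, within 250 bases of its start. They are shown because the 4 genes sit side by side and their levels by class moved in 2 directions. Capitals mark the motifs found.
Itpripl1 upstream, chr2:127143458-127143707, minus strand: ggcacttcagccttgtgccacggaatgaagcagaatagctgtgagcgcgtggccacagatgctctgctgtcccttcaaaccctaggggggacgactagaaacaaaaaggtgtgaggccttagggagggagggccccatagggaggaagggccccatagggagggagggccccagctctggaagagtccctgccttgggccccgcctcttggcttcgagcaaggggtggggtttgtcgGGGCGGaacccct
Snrnp200 upstream, chr2:127208281-127208385, plus strand: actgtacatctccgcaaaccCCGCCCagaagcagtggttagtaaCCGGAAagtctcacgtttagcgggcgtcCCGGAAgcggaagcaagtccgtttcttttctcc
Tmem127 upstream, chr2:127247817-127247903, plus strand: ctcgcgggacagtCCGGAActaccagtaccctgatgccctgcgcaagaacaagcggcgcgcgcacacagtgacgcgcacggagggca
Stard7 upstream, chr2:127269979-127270201, plus strand: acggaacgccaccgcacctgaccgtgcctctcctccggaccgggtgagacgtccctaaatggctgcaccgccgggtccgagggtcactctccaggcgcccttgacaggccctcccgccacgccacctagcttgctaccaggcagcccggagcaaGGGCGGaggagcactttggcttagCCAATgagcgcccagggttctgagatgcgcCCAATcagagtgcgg

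The motifs searched, on both strands, were CCAAT, the GC box GGGCGG, the TATA box TATAAA, the ETS-type core CCGGAA, the NRF1-type GCATGCGC and the E-box CACGTG, none of which holds another. The Stard7 stretch had CCAAT at 2 places and GGGCGG at 1, all on the strand of the gene. Snrnp200 had CCGGAA at 2 places and GGGCGG on the opposite strand, Tmem127 had CCGGAA once, and Itpripl1 had GGGCGG once. TATAAA, GCATGCGC and CACGTG were in none of the 4 stretches, nor in the full windows of these genes, which have 300 bases and run past the start. Over all 32851 windows of the table, CCAAT was found in 37.4%, GGGCGG in 35.7%, TATAAA in 13.6%, CCGGAA in 14.9%, GCATGCGC in 2.71% and CACGTG in 7.15%. No motif was shared by all 4 stretches, and GGGCGG was in all 4 full windows of which these stretches are part. A second annotated start of Itpripl1 lies inside the gene's span, had none of the motifs in its window, and is not printed.

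Stard7 in gonadal fat was highest in class 1 and lowest in class 4. In log2 normalized signal, the lowest, median and highest of 12 arrays were 6.80, 7.17 and 7.61 in class 1, 6.34, 6.71 and 6.97 in class 2, 6.37, 6.73 and 7.13 in class 3, and 6.16, 6.37 and 6.46 in class 4. Every class 1 array lay above every class 4 array, with a gap of 0.35, while classes 2 and 3 overlapped each other and both of the outer classes. Means adjusted for sex and scanning day were 7.18 ± 0.16, 6.69 ± 0.14, 6.73 ± 0.18 and 6.35 ± 0.07 in classes 1 to 4 (SD, n = 12 each). Class 1 minus class 4 was 0.83, a 1.78-fold difference on a scale to which an offset of 16 had been added before log2, which understates differences near background. Classes 2 and 3 differed by less than their SDs and stood at 40.4% and 45.7% of the way up from class 4 to class 1. After the offset was taken off and signals were read on the linear scale, the same shares were 34.2% and 38.8%. The deposited signals, before any correction, had medians of 304 in class 1 and 218.3 in class 4, and their ranges of 263.4 to 398.6 and 140.1 to 311.6 overlapped. Class 1 exceeded class 4 on all 4 scanning days, by 0.61 to 0.97.

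In liver the same Stard7 probe gave a wider range. The lowest, median and highest arrays were 7.39, 7.93 and 8.54 in class 1, 6.97, 7.36 and 7.90 in class 2, 6.96, 7.46 and 7.57 in class 3, and 6.47, 6.70 and 7.05 in class 4. Class 1 and class 4 again did not overlap, with a gap of 0.33, and classes 2 and 3 lay over each other. Adjusted means were 7.97 ± 0.34, 7.41 ± 0.19, 7.41 ± 0.15 and 6.73 ± 0.19 (SD, n = 12 each), so that class 1 minus class 4 was 1.24, or 2.36-fold. Classes 2 and 3 stood at 54.8% and 54.9% of the way up. Class 1 was higher on all 4 liver scanning days, by 0.63 to 1.52. Class accounted for 82.6% of the variance of Stard7 left in fat after sex and scanning day, and for 79.7% in liver, values that the choice of the gene makes high. The second Stard7 probe was detected on 0 of the 48 fat arrays and 0 of the 48 liver arrays, and gives no measure of the gene.

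Tmem127 followed the same order of classes. Its brighter probe in fat had a lowest, median and highest value of 7.24, 7.57 and 7.87 in class 1, 6.82, 7.12 and 7.65 in class 2, 6.53, 7.19 and 7.57 in class 3, and 6.61, 6.73 and 7.14 in class 4. Classes 1 and 4 did not overlap, with a gap of 0.11, and 1 class 3 array lay below every class 4 array. Adjusted means were 7.55 ± 0.22, 7.12 ± 0.22, 7.20 ± 0.21 and 6.79 ± 0.14 (SD, n = 12 each), and class 1 minus class 4 was 0.76, or 1.70-fold. Classes 2 and 3 stood at 43.0% and 53.1% of the way up.

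The same Tmem127 probe in liver kept the order of the outer classes over a shorter span. Its lowest, median and highest arrays were 6.66, 6.90 and 7.25 in class 1, 6.48, 6.68 and 6.98 in class 2, 6.42, 6.63 and 6.89 in class 3, and 6.24, 6.50 and 6.62 in class 4. The class 1 and class 4 arrays were apart by 0.04, with 1 class 4 array below detection. Adjusted means were 6.89 ± 0.22, 6.69 ± 0.11, 6.65 ± 0.11 and 6.46 ± 0.07 (SD, n = 12 each), and class 1 minus class 4 was 0.43, or 1.35-fold. Class 1 was above class 4 on all 4 days in each tissue, by 0.65 to 0.92 in fat and by 0.30 to 0.67 in liver.

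The second Tmem127 probe did not share this pattern. It was detected on 37 fat and 30 liver arrays, close to background, and its adjusted fat means were 6.25 ± 0.07, 6.23 ± 0.09, 6.29 ± 0.10 and 6.22 ± 0.07 in classes 1 to 4 (SD, n = 12 each). Its liver means were 6.31 in classes 1 and 2 and 6.30 in classes 3 and 4. Class 1 minus class 4 was 0.03 in fat and 0.01 in liver, less than the SD of any class. The fat value was -0.08 in females, 0.15 in males and -0.0168 without scanning day 3, so it has no settled sign. The values by sex are not adjusted for scanning day. Day 3 held class 1 males and class 4 females, but no class 1 females or class 4 males. With class and sex removed, the level of this probe was 6.40 on day 3, against 6.18 to 6.22 on the other days. Where the 2 probes sit in the transcripts was not examined, because probe sequences are not used here, so the class pattern of Tmem127 rests on 1 probe. Those of Stard7, Itpripl1 and Snrnp200 also rest on 1 probe each. Whether sequence variants lie under any of these probes was not tested.

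Itpripl1 was measurable in fat only. Its better probe was detected on 46 fat arrays, 10 of 12 in class 4 and all in the other classes. The lowest, median and highest fat values were 6.38, 7.08 and 7.56 in class 1, 6.31, 6.70 and 7.08 in class 2, 6.43, 6.76 and 7.10 in class 3, and 6.26, 6.35 and 6.63 in class 4. Here the outer classes overlapped: 1 class 1 array lay within the range of class 4. Adjusted means were 7.05 ± 0.30, 6.73 ± 0.20, 6.77 ± 0.18 and 6.41 ± 0.15 (SD, n = 12 each), so that class 1 minus class 4 was 0.64, or 1.55-fold, and classes 2 and 3 stood at 50.8% and 57.2%. Class 1 was above class 4 on all 4 days, by 0.39 to 0.81.

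In liver that Itpripl1 probe was detected on 3 arrays, 2 of class 1 and 1 of class 2, too few for a test. Its liver values ran from 6.10 to 6.29 in class 1 and from 5.99 to 6.13 in class 4, close to the floor of the array. The adjusted means still fell in the order 6.19, 6.16, 6.12 and 6.05 from class 1 to class 4, with SDs of 0.04 to 0.06. The other Itpripl1 probe was detected on 0 arrays of either tissue.

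Snrnp200, the splicing helicase gene, ran the other way. In fat its lowest, median and highest values were 6.45, 6.71 and 6.96 in class 1, 6.57, 6.73 and 7.26 in class 2, 6.53, 6.82 and 7.09 in class 3, and 6.66, 7.06 and 7.38 in class 4. The outer classes overlapped widely, with 9 of 12 class 1 arrays inside the range of class 4. Adjusted means were 6.72 ± 0.13, 6.79 ± 0.16, 6.81 ± 0.17 and 7.06 ± 0.19 (SD, n = 12 each), and class 1 minus class 4 was -0.34, a ratio of 0.789. Classes 2 and 3 lay near class 1 rather than midway. Class 1 was below class 4 on 4 of 4 days, by differences between -0.62 and -0.14.

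In liver Snrnp200 had medians of 6.55, 6.62, 6.63 and 6.67 in classes 1 to 4, and lowest and highest values of 6.26 and 6.77 in class 1, against 6.25 and 6.98 in class 4. The adjusted means of 6.54 ± 0.17, 6.60 ± 0.15, 6.58 ± 0.13 and 6.66 ± 0.12 (SD, n = 12 each) differed by less than their SDs, with class 1 minus class 4 at -0.12. By sex this difference was -0.27 in females and 0.03 in males, and on 1 of 4 days class 1 was above class 4. The plot of array values by class sets the 4 genes side by side in both tissues.

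**Figure D1:**
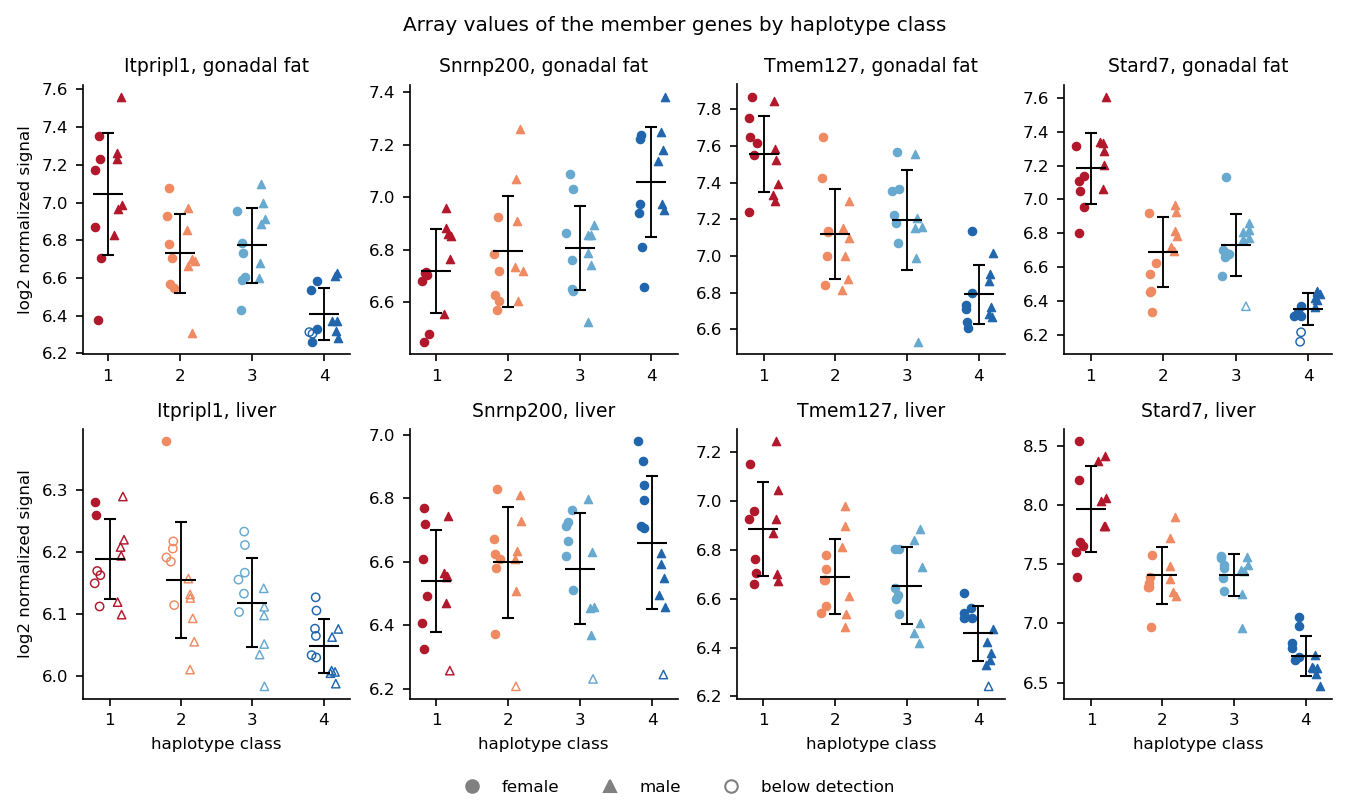
Log2 normalized signal of the brighter probe of each gene on every array, by haplotype class (x axis), in gonadal fat (top) and liver (bottom). Circles are females and triangles males, open symbols are arrays with a detection p of 0.01 or more, and bars are the mean and SD of 12 arrays. Stard7 and Tmem127 fall from class 1 to class 4 in both tissues and Itpripl1 in fat, while Snrnp200 in fat is highest in class 4.

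Over all probes, 0.401% in fat and 0.317% in liver were past an adjusted p of 0.05 for class in limma's F-test. Because class differences chose these genes, the members are not set against these shares. Class 1 and class 4 arrays were wholly apart, in either direction, for 0.0587% of the fat probes, 6 probes in all, of which Stard7 and Tmem127 were 2. In liver this held for 0.0353%, or 3 probes, of which the same 2 genes gave 2. The choice of the genes by class makes such separation likely, and nothing is read from these counts. In bulk tissue, fewer cells that express a gene and less of its RNA per cell cannot be told apart. Of 30 cell type marker genes tested in fat and 19 in liver, 0 were called by class in limma's F-test, with 8 and 0 at an unadjusted p under 0.05. Over all probes 1323 of 10217 in fat had such a p, a smaller share than the 8 of 30 markers, and 455 of 8504 in liver. The part of these markers in the class levels of the members was not tested. The mean level of the adipocyte markers in fat was 9.83, 9.58, 9.93 and 9.92 in classes 1 to 4, and that of the hepatocyte markers in liver was 10.46, 10.45, 10.51 and 10.48.

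The genes around the 4 members were read in the same way. Of 22 annotated genes in the window, made of the 10 genes before Itpripl1, those between members, and the 10 after Stard7, 12 had a probe. Only Sppl2a, Blvra and Prom2 could be tested in fat, and these and Fahd2a in liver. The class F-test called 0 of 3 in fat, where all 3 had an unadjusted p under 0.05, and 0 of 4 in liver, where all 4 did. Over all probes, 1323 of 10217 in fat and 455 of 8504 in liver had such a p. Sppl2a, an intramembrane protease gene, had adjusted means of 7.01, 6.87, 6.91 and 6.76 in fat classes 1 to 4 (adjusted p = 0.289) and of 7.93, 7.85, 7.85 and 7.59 in liver (adjusted p = 0.492). Class 1 minus class 4 was thus 0.25 in fat and 0.34 in liver, with SDs per class of up to 0.26. Blvra, which encodes biliverdin reductase, had adjusted means of 8.57, 8.33, 8.76 and 8.70 in fat classes 1 to 4. Its liver means were 7.01, 7.05, 7.03 and 7.25. Class 1 minus class 4 was -0.12 in fat and -0.24 in liver. The F-test over all 4 classes, which does not test that difference, gave an adjusted p of 0.263 in fat and 0.583 in liver. By sex in liver, Sppl2a was lower in females, at -0.41 (limma adjusted p = 1.11e-05) and Blvra was higher by 0.16 (limma adjusted p = 0.0201). Prom2, a membrane glycoprotein gene detected on 14 fat and 15 liver arrays, was lower in females in fat, at -1.04 (limma adjusted p = 0.00974) and higher in liver by 0.16 (limma adjusted p = 0.00272).

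The 2 genes that lie between the members gave no measure. 1810024B03Rik was detected on 0 arrays of either tissue, and Ciao1, which faces Tmem127 across the 87 bases, on 2 fat and 0 liver arrays. Whether the class differences of Itpripl1, Snrnp200, Tmem127 and Stard7 extend to these genes could not be measured. The plot of the gene window shows the sign change at Snrnp200, between Itpripl1 and Tmem127.

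**Figure D2:**
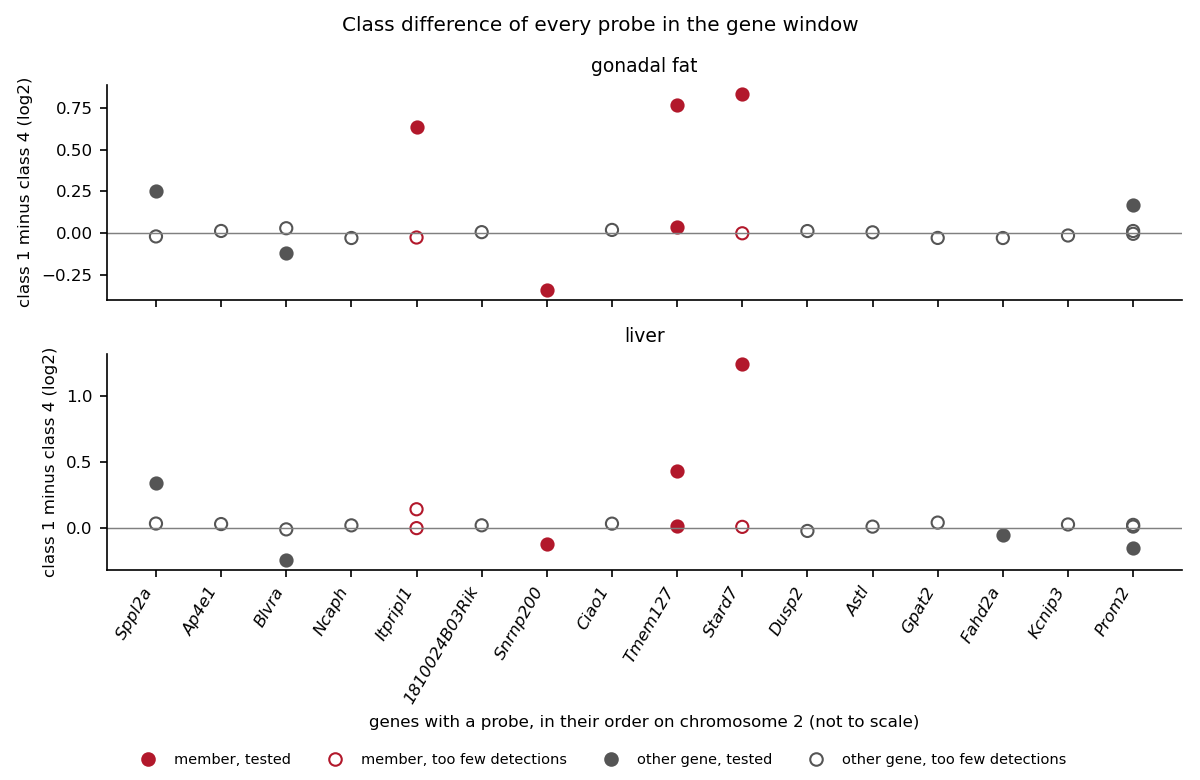
Class 1 minus class 4 (log2, y axis) of every probe in the window, with genes in chromosomal order on the x axis, for gonadal fat (top) and liver (bottom). Red symbols are the 4 members and grey ones other genes, and open symbols are probes detected on too few arrays to test. In fat Itpripl1, Tmem127 and Stard7 reach 0.64, 0.76 and 0.83 and Snrnp200 is at -0.34.

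Each mouse gave both tissues, so it could be asked whether an animal high in fat was also high in liver. With class kept, the fat and liver values of 48 mice, adjusted for sex and scanning day, were correlated. The r was 0.81 for Stard7, 0.67 for the brighter Tmem127 probe, 0.51 for Itpripl1 and 0.16 for Snrnp200. These values include the class levels and are a description. Itpripl1 was detected on 3 liver arrays, so its liver values are mostly below detection. With class removed as well, no relation passed the test. Stard7 then had r = 0.08 (permutation p = 0.606, adjusted 0.950) and Spearman's rho 0.02 (permutation p = 0.914), and r = 0.05 without the 2 mice farthest from the median. For the brighter Tmem127 probe r was 0.16 (permutation p = 0.273, adjusted 0.950) and rho 0.04 (permutation p = 0.787), and r fell to -0.03 without the 2 farthest mice. Snrnp200 had r = -0.03 (permutation p = 0.833, adjusted 0.950) and rho -0.08 (permutation p = 0.570). The second Tmem127 probe had r = -0.01 (permutation p = 0.950, adjusted 0.950) and rho 0.06 (permutation p = 0.686). All 4 relations are 1 family, tested two-sided, and the lowest adjusted p of the rank correlations was 0.914. Within single classes the 4 values ran from -0.57 to 0.64, and within the fat scanning days from -0.40 to 0.69, with both signs for every gene. Over 7376 probes tested in both tissues the median r was 0.04, and the middle 95% ran from -0.26 to 0.40.

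**Figure D3:**
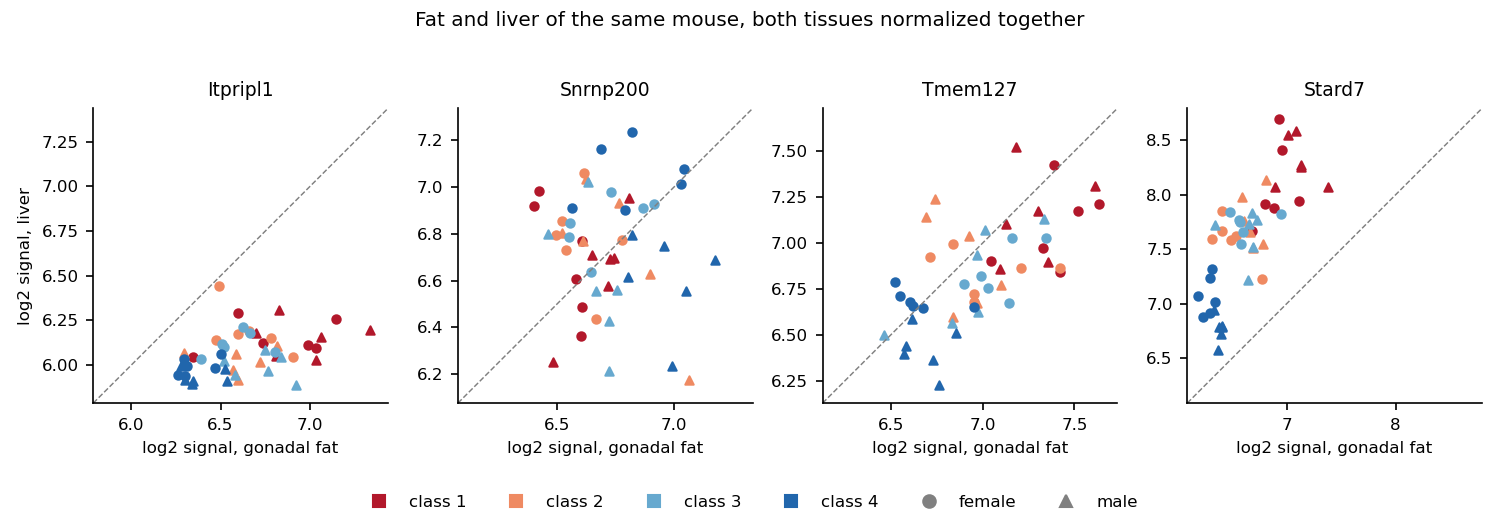
Log2 signal in gonadal fat (x axis) and liver (y axis) of each of the 48 mice, with both tissues normalized together. Colours are haplotype classes, circles females and triangles males, and the dashed line marks equal values. Every mouse lies above the line for Stard7 and below it for Itpripl1, and class 1 lies apart from class 4 on both axes for Stard7, with classes 2 and 3 overlapping their neighbours.

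Tissue levels were set against each other after all 96 arrays had been normalized together, which shifts each level slightly from those above. Fat arrays were scanned on days 3, 4, 7 and 8 and liver arrays on days 1, 2, 5 and 6. A tissue difference therefore cannot be told apart from one between scanning days. Of all probes, 86.7% differed between fat and liver, and 4 of the 5 member probes tested did, Itpripl1 among them. The liver level of Itpripl1 was mostly below detection. Stard7 was lower in fat in 48 of 48 mice. Its lowest, median and highest values were 6.19, 6.60 and 7.38 in fat, against 6.58, 7.67 and 8.69 in liver. Fat minus liver was -0.98 ± 0.05 (SE, n = 48 each, limma adjusted p = 2.15e-36). Its size depended on the scaling, at -0.64 with each tissue normalized by itself and -0.54 in the deposited matrix.

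Itpripl1 was higher in fat in 48 of 48 mice. It ran from 6.26 through a median of 6.60 to 7.34 in fat, against 5.89, 6.06 and 6.44 in liver, where 3 arrays detected it. It entered the test through its fat arrays alone, and the liver values are mostly below detection. The difference of 0.56 therefore has no exact size and its p is not given. The brighter Tmem127 probe was higher in fat in 35 of 48 mice, with medians of 6.97 in fat and 6.83 in liver and widely overlapping ranges. Its difference was 0.15 ± 0.04 (SE, limma adjusted p = 0.000580), and 0.49 with each tissue normalized by itself. The second Tmem127 probe pointed the other way, at -0.08 ± 0.02 (SE, limma adjusted p = 0.000375), and was higher in fat in 13 of 48 mice. In the deposited matrix that difference was -0.23.

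Snrnp200 had medians of 6.70 in fat and 6.77 in liver, and was higher in fat in 22 of 48 mice. Fat minus liver was -0.03 ± 0.04 (SE, limma adjusted p = 0.572). Its direction depended on the scaling: with each tissue normalized by itself the difference was 0.25 (limma adjusted p = 5.12e-09). By class, fat minus liver of Stard7 had medians of -1.14, -1.13, -1.07 and -0.61 in classes 1 to 4, as a description. For Itpripl1 they were 0.82, 0.56, 0.56 and 0.41, which with liver mostly below detection largely repeat its fat levels.

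Sex was independent of how the genes were chosen. In fat 22.6% of all probes differed between the sexes, and 1 of the 5 member probes did. Stard7 was lower in females, whose lowest, median and highest values were 6.16, 6.64 and 7.32, against 6.36, 6.79 and 7.61 in males. Female minus male was -0.13 ± 0.05 (SE, n = 24 each, limma adjusted p = 0.0391), and the ranges overlapped. By class the female minus male means were -0.24, -0.26, 0.0013 and -0.14, so females were lower in 3 of 4 classes. The call was lost when any 1 of the 4 scanning days was left out (adjusted p of 0.0739 to 0.243), with no detection filter (0.0965) and without the 3 least correlated arrays of a tissue (0.0550). The 3 arrays that share a class and a scanning day are all of 1 sex, so a sex difference within a day is also one between classes. Within a class the sexes were scanned on different days, so the means by class cannot tell sex from scanning day.

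In the same fat test, Itpripl1 had medians of 6.65 in females and 6.76 in males, with a difference of -0.07 ± 0.07 (SE, limma adjusted p = 0.524). Snrnp200 had medians of 6.72 and 6.87 in females and males, a difference of -0.09 ± 0.05 (SE, limma adjusted p = 0.243). The brighter Tmem127 probe was at 7.20 in females and 7.13 in males, a difference of 0.08 ± 0.07 (SE, limma adjusted p = 0.413). None of these 3 passed the threshold, and nor did the second Tmem127 probe (-0.02 ± 0.03, SE, limma adjusted p = 0.603).

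In liver 34% of all probes differed by sex, and 2 of the 4 member probes did. Snrnp200 was higher in females, at 6.33, 6.69 and 6.98 for the lowest, median and highest array, against 6.21, 6.55 and 6.81 in males. Female minus male was 0.12 ± 0.05 (SE, n = 24 each, limma adjusted p = 0.0392), and 24 female and 20 male arrays detected it. By class the female minus male means were 0.03, 0.03, 0.18 and 0.33, positive in 4 of 4 classes. These means are not adjusted for scanning day, and within a class the sexes were again scanned on different days. With class and sex removed, the Snrnp200 liver level ran from 6.49 on day 2 to 6.70 on day 1. The second Tmem127 probe, near background, was lower in females, at -0.06 ± 0.02 (SE, limma adjusted p = 0.0299), while the brighter one did not pass at 0.01 ± 0.04 (SE, limma adjusted p = 0.892). The call of the second probe was lost with no detection filter (adjusted p = 0.0972), without the 3 least correlated arrays (0.159) and without scanning day 5 (0.366) or 6 (0.420), where the difference was -0.03. Stard7 in liver had medians of 7.38 in females and 7.45 in males, a difference of -0.09 ± 0.07 (SE, limma adjusted p = 0.385). The Snrnp200 call was lost without scanning day 1, 5 or 6 (adjusted p of 0.114 to 0.182), with no detection filter (0.115) and without the 3 least correlated arrays (0.166).

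Whether class levels differed between the sexes was asked with the interaction of sex and class. It was called for 0% of all probes in fat, where 685 had an unadjusted p under 0.05, and for 0% in liver, where 573 did, so 0 of 5 and 0 of 4 member probes passed. The lowest member p in fat was that of the second Tmem127 probe (limma, unadjusted p = 0.351, adjusted p = 0.882). In liver Snrnp200 had an unadjusted p of 0.0470 and the brighter Tmem127 probe one of 0.0527 in limma's F-test, with adjusted p of 0.735 and 0.750. Class 1 minus class 4 of Stard7 was 0.78 in females and 0.88 in males in fat, and 1.00 and 1.48 in liver (limma, adjusted p of the interaction 0.886 and 0.833). For the brighter Tmem127 probe it was 0.84 in females and 0.69 in males in fat, and 0.31 and 0.55 in liver. These differences by sex are not adjusted for scanning day. In fat, classes 1 and 4 of a sex were scanned partly on different days, while in liver they shared their days.

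The sex difference itself was then compared between the tissues. This interaction was called for 27.6% of all probes and for 2 of the 5 member probes, Snrnp200 and Itpripl1. The liver level of Itpripl1 was mostly below detection. Snrnp200 had a mean fat minus liver of -0.17 in 24 females, of which 6 were higher in fat, and of 0.12 in 24 males, of which 16 were. These values are from both tissues normalized together. Their position against 0 depends on that scaling, as fat minus liver over all mice was 0.25 with each tissue normalized by itself. The interaction was -0.24 ± 0.08 (SE, limma adjusted p = 0.0150), and its adjusted p was 0.0523 without the 3 least correlated arrays. Itpripl1 was higher in fat in every mouse, by 0.49 in females and 0.64 in males. It entered the test through its fat arrays alone, and its liver means, from arrays mostly below detection, were 6.11 in females and 6.03 in males. The Itpripl1 interaction of -0.17 ± 0.07 (SE) therefore has no exact size and its p is not given. Its call was lost with no detection filter (limma adjusted p = 0.130). Stard7 did not pass, at -0.04 ± 0.10 (SE, limma adjusted p = 0.778), and nor did the brighter Tmem127 probe at 0.05 ± 0.08 (SE, limma adjusted p = 0.698).

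**Figure D4:**
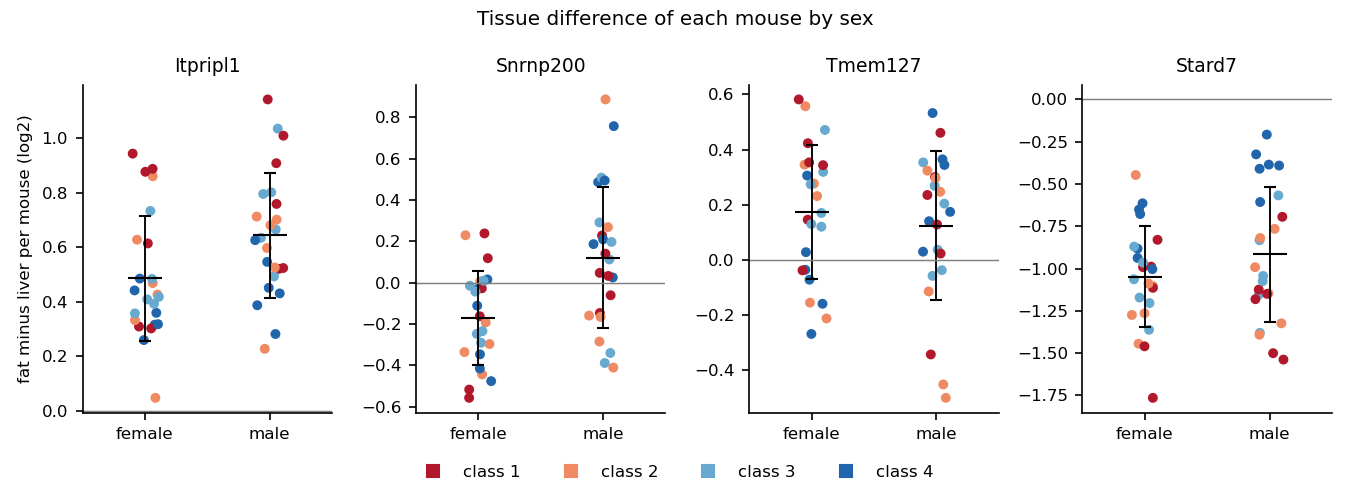
Fat minus liver of each mouse (log2, y axis) by sex (x axis) for the brighter probe of each gene, coloured by haplotype class, with the mean and SD of 24 mice. Snrnp200 lies mostly below 0 in females and above 0 in males, and Stard7 is below 0 in all mice. Both tissues were normalized together, and the position of Snrnp200 against 0 depends on that scaling.

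Pairs of members were compared within a tissue after class, sex and scanning day had been removed, to see whether they also moved together from array to array. Of 9 pairs over both tissues, 1 passed after adjustment. Snrnp200 and Tmem127 in liver correlated at r = 0.58 (permutation p = 1e-05, the smallest that 100000 resamples can give, adjusted 9e-05) and rho = 0.55 (permutation p = 7e-05, adjusted 0.00063). The value was 0.50 without the 2 arrays farthest from the median. It was positive in 4 of 4 classes (0.40 to 0.67) and on 4 of 4 scanning days (0.40 to 0.72). The same 2 genes in fat had r = 0.36 (permutation p = 0.0114, adjusted 0.0515) and rho = 0.34 (permutation p = 0.0174, adjusted 0.0785), with positive values in all classes and on all days. These residuals share the array, so an error of the array's scaling moves both genes, and its part was not tested.

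No pair with Stard7 passed the threshold. Its r with Tmem127 was 0.17 in fat (permutation p = 0.238, adjusted 0.550) and -0.06 in liver (permutation p = 0.680, adjusted 0.738). Its r with Snrnp200 was 0.14 in fat (permutation p = 0.328, adjusted 0.550) and -0.13 in liver (permutation p = 0.398, adjusted 0.550). In fat Itpripl1 had r = 0.12 with Stard7, 0.13 with Tmem127 and -0.05 with Snrnp200, none past the threshold (lowest permutation p = 0.386, adjusted 0.550).

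**Figure D5:**
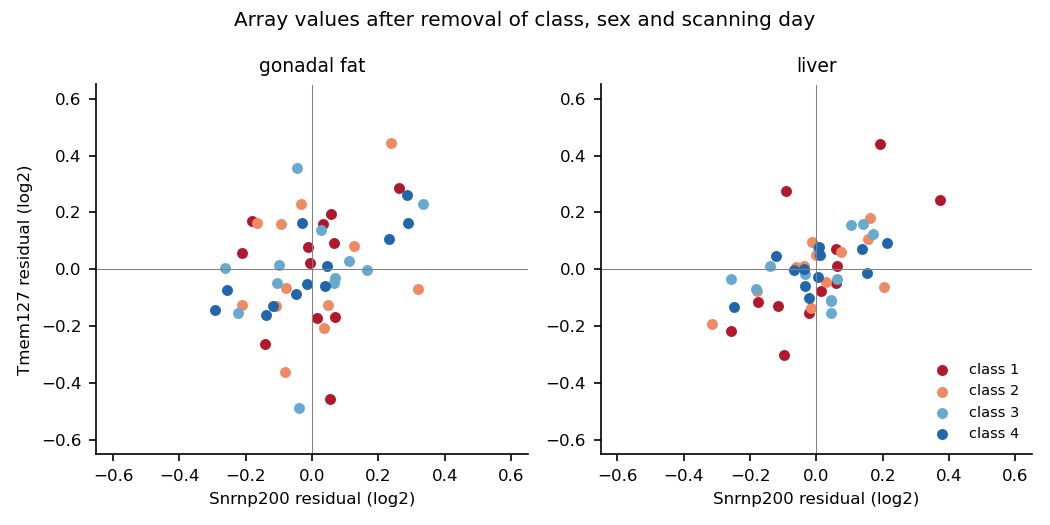
Residuals of Snrnp200 (x axis) and Tmem127 (y axis) in log2 on the 48 arrays of gonadal fat (left) and liver (right), after class, sex and scanning day had been removed, coloured by haplotype class. The points rise together in liver (r = 0.58) and less tightly in fat (r = 0.36).

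The probes most like Stard7 were listed by their correlation over the 48 arrays of a tissue, which share class and scanner. With class kept, the 6 probes of other genes with the largest r in size in fat were all on chromosome 2: Zfp106 (r = 0.81), Ccndbp1 (0.80), Traf6 (0.79), Ehd4 (0.71), Gchfr (-0.70) and Ccdc32 (0.70). Among all 10216 other probes, Tmem127 ranked 4, Itpripl1 8 and Snrnp200 23, the last with a negative r of -0.47. Class differences chose the members, so nothing is read from their ranks with class kept, here or in liver. The middle 95% of probes lay between -0.28 and 0.27. In liver the 6 of other genes were Gchfr (0.75), an unnamed probe (0.74), Cep152 (-0.74), Tmem87a (0.73), Slc1a2 (0.71) and Trim44 (-0.68), the 5 named ones on chromosome 2. There Tmem127 ranked 9 (r = 0.65) and Snrnp200 456 (r = -0.32) of 8503. Gchfr was read by different probes in the 2 tissues, with opposite signs.

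With class removed the list changed. In fat the 6 were Edem2 (r = -0.65), Cul3 (0.65), Uqcr10 (0.64), Ndufa12 (0.61), Ndufaf5 (0.60) and Sdhb (0.60), and the middle 95% of probes lay between -0.36 and 0.41. Uqcr10, Ndufa12 and Sdhb encode subunits of respiratory complexes in the inner mitochondrial membrane, and Ndufaf5 an assembly factor of complex I. They were found by ranking and carry no test. In liver the 6 were Rps20 (-0.65), Nfib (0.63), Decr1 (0.62), Dsg3 (0.61) and 2 unnamed probes (0.63 and 0.61). None of the other members was near the top of either list: Tmem127 had r = 0.17 in fat and -0.06 in liver.

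Genes of the members' pathways were followed in 7 lists. By class, 0 of 75 list genes tested in fat and 0 of 71 in liver passed limma's F-test, with 8 and 2 at an unadjusted p under 0.05. The genes of the START list other than Stard7 had a median range over the classes of 0.11 in fat over 9 genes, against 0.12 over all fat probes. In liver these genes had 0.08 over 8 genes, against 0.08. Their lowest p were those of Stard10 in fat (0.0138) and Stard13 in liver (0.131). The splicing partners of Snrnp200 in the U5 and tri-snRNP list had a median range of 0.11 in fat and 0.08 in liver, over 11 genes each. The lysosomal mTORC1 and Ret genes around Tmem127 had 0.20 in fat and 0.08 in liver over 14 genes each, and Rragc, a Rag GTPase gene, had the lowest p in fat (0.00359). Phosphatidylcholine and phosphatidylethanolamine synthesis had a median range of 0.13 in fat over 8 genes and 0.09 in liver over 9. Mitochondrial lipid transfer, cristae and coenzyme Q genes, 17 in each tissue, had 0.11 and 0.09. Paraganglioma genes had 0.16 in fat over 10 genes and 0.08 in liver over 9. Genes of inositol trisphosphate receptors and interactors had 0.09 in fat over 6 genes and 0.09 in liver over 3.

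Between fat and liver, 10 of 10 tested genes of the START list differed, 4 higher and 6 lower in fat. Of all probes 86.7% differed, and 66 of the 81 genes of the 7 lists did, or 81.5%. Fat minus liver was -4.96 (log2) for Stard10 and -3.19 for Stard4, a sterol carrier gene, while Stard8 was higher by 1.51. All 10 tested genes of phosphatidylcholine and phosphatidylethanolamine synthesis differed, 8 of them lower in fat, with Pemt, which methylates phosphatidylethanolamine in liver, at -4.58 and Chpt1 at 2.36. Their median was -0.78, against 0.04 over all probes. Mitochondrial lipid and coenzyme Q genes gave 14 of 18, with Aifm2 at 3.13 and Coq8a at -1.10. For the mTORC1 and Ret list it was 11 of 16, with Gfra1 at -2.35 and Rragc at 1.52. The paraganglioma list gave 9 of 10, with Max at 0.91, and the U5 list 7 of 11, with Prpf8 at -0.40. The inositol trisphosphate receptor and interactor list gave 5 of 6, with Itpripl2 at 0.33.

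By sex, 11 of the 75 list genes passed in fat and 26 of 71 in liver, 14.7% and 36.6%, where 22.6% and 34% of all probes did. In fat Cert1, the ceramide carrier of the START family, was lower in females, at -0.26 (limma adjusted p = 0.00425) and was the only one of 9 called. In liver Stard8 (0.11) and Stard5 (0.23) were higher in females, 2 of 8. Of the U5 list in liver, 2 genes were higher and 5 lower in females: Prpf8, a direct partner of Snrnp200 in the U5 particle, was higher by 0.19 (limma adjusted p = 0.00601), and Prpf6 was lower, at -0.44 (limma adjusted p = 0.000808). In liver 4 genes of phosphatidylcholine and phosphatidylethanolamine synthesis were higher and 2 lower in females, among them Pemt at 0.37 and Chpt1 at -0.86. Of the mitochondrial list 1 of 17 genes passed in fat, Coq6 at -0.33, and 8 of 17 in liver, where Crls1, the cardiolipin synthase gene, was higher in females by 0.70. The mTORC1 and Ret list gave 3 of 14 in each tissue, with Rragc at -0.24 in fat and Gfra1 at -0.42 in liver. In fat 3 of 10 paraganglioma genes passed, among them Egln1 at -0.18. So did 2 of 6 genes of the inositol trisphosphate receptor and interactor list, Mrvi1 at 1.19 and Itpripl2 at 0.13. From these lists 0 of 9 and 0 of 3 passed in liver.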

How the data were processed

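Raw Illumina bead summary intensity values and a detection score per probe, together with a log2 matrix of the same 96 arrays, were taken as the authors deposited them. The detection column is a fraction that runs as 1 minus the detection p, per the deposited values. The authors' matrix is on a log2 scale, and lumi is named in the submitters' processing notes without a version. The sources used here name neither its normalization nor the genome build of the probes. All 96 matrix columns correlated best with their own raw column, and 0 other columns of per-sample values were left out.

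The intensities were background-corrected and quantile-normalized with neqc of limma 3.58.1 (R 4.3.3, offset 16), within each tissue, or over both for tissue comparisons. Probes with a detection p under 0.01 on at least 12 arrays were fitted with class, sex and scanning day within a tissue. The tissue fit held tissue, sex and class, without scanning day or mouse. The tissue by sex fit held scanning day, sex, class and the interaction. In each fit p-values were adjusted over all tested probes by Benjamini-Hochberg. Fat and liver of a mouse are paired by the mouse number in the labels. The consensus correlation within a mouse was -0.03 for tissue and 0.02 for tissue by sex. Correlations used 100000 two-sided permutations. The class fit was tested on simulated data.

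The 4 genes, the neighbours and the lists were chosen with earlier results of these data known. The text names every probe of the 4 genes, neighbours that could be tested or lie beside a member, the 6 probes most like Stard7 per tissue and measure, and per list up to 4 called genes of smallest p. Genes of lowest p in lists where none was called are also given, chosen after their values were seen. For a gene with several tested probes the one with the highest mean was used. Alternatives were the deposited matrix, no background correction, other detection filters, fewer arrays or scanning days, no scanning day term, and mouse as a block.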

Additional observations from a re-analysis of the deposited data

Results flagged for a closer look

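Among 72 groups of 6 arrays that share probe, tissue, class and sex, 5 held an array that stood apart from the rest, where chance at 1 in 20 gives 3.6. All 5 were fat arrays. Stard7 was 7.13 on 1 class 3 female array, against 6.55 to 6.70 on the others, and 6.37 on 1 class 3 male array, against 6.77 to 6.86. Liver of the same mice was at 7.55 and 7.44, inside the range of the other livers of their groups. The brighter Tmem127 probe was 7.14 on 1 class 4 female array, against 6.61 to 6.80, with liver at 6.52. The second Tmem127 probe, close to background, was 6.59 on 1 class 2 female array, against 6.16 to 6.30, and 6.45 on 1 class 3 female array, against 6.17 to 6.27. The arrays came from scanning days 3 and 8.

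Fat minus liver differed between the sexes for Snrnp200, by -0.24 (6 of 24 females and 16 of 24 males were higher in fat, limma adjusted p = 0.0150). These counts are from both tissues normalized together, and the direction between tissues depended on the scaling. Itpripl1 was also called, at -0.17 (24 of 24 in each sex were higher in fat). It was detected on 3 liver arrays, so its value includes a difference between liver levels mostly below detection, and its p is not given. The Itpripl1 call was lost with no detection filter (limma adjusted p = 0.130).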

How the results depend on the processing

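Class 1 minus class 4 kept its sign for Stard7, the brighter Tmem127 probe and, in fat, Itpripl1 and Snrnp200 under the alternatives run. The alternatives included each sex alone, without adjustment for scanning day. Over these, Stard7 ran from 0.55 to 0.88 in fat and from 0.66 to 1.48 in liver, Tmem127 from 0.44 to 0.84 and from 0.28 to 0.55, Itpripl1 in fat from 0.42 to 0.71 and Snrnp200 in fat from -0.37 to -0.21. Snrnp200 in liver ran from -0.27 to 0.03 and the second Tmem127 probe in fat from -0.08 to 0.15. Counts over all probes moved more, and the cause was not tested. By class in fat, 41 probes were called, against 65 in the deposited matrix, 63, 24, 20 and 13 without scanning day 3, 4, 7 and 8, and 21 without a day term. In liver 27 were, against 16 without day 5. By sex in fat 2314 were called, against 964, 1435 and 1275 without day 3, 4 and 8, and in liver 2893, against 1656 without day 5. For sex by class, 0 were called in fat, against 60 without day 7 and 3 without a day term, and 0 in liver, against 1 and 23 without day 2 and 5 and 316 without a day term. No member was among the sex by class calls. Tissue gave 10162 calls, and 18935 with no detection filter, which tests more probes. Of the member pairs 1 passed, and 2 in the deposited matrix, where the fat pair of Snrnp200 and Tmem127 had r = 0.40 (permutation p adjusted 0.0196). Signs turned for values that were not called. The sex difference of the second Tmem127 probe in fat was 0.0144 without day 3, and that of the brighter one was -0.0058 in fat without day 7, and -0.0163 and -0.0595 in liver without day 5 and 6. Snrnp200 between tissues was 0.25 with each tissue normalized alone. The fat and liver correlation of the second Tmem127 probe was 0.0020 in the deposited matrix, 0.0021 with no background correction and 0.0372 without the 3 least correlated arrays. The liver correlation of Tmem127 and Stard7 was 0.0105 and 0.0356 under the first 2 of these. With mouse as a replicate block, tissue gave 10132 calls and tissue by sex 3288, and the block changed no member's call. Probes near background, the second Tmem127 probe and Itpripl1 in liver, have compressed differences.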
